A study of Mus musculus with 9 samples.

Results

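The genes of the respiratory chain and the ATP synthase, encoded in the nucleus and in mitochondrial DNA, were followed in mouse olfactory sensory neurons sorted by the odorant receptor they express. Members were the rows of the expected-count table whose symbol begins with Nduf, Cox4 to Cox8, Atp5, Uqcr, mt-Nd, mt-Co, mt-Atp or mt-Cytb, or is Sdha, Sdhb, Sdhc or Sdhd. This gave 110 members of 55291 rows, 97 nuclear and 13 mitochondrially encoded, and 14 rows with the suffix -ps were left out. Membership follows from the symbol alone, though the gene group was picked with earlier results of these data known. Mice carried 1 of 3 tagged receptor alleles. The Olfr73 group had the genotype Olfr73-IRES-GFP, the Olfr1507 group had Olfr1507-IRES-GFP, and the Olfr160 group had Olfr160-IRES-mCherry. In such alleles the receptor's own transcript carries the reporter, so that a sorted cell is marked by the receptor it has chosen. Main olfactory epithelium was dissociated with papain, and cells high in the reporter and low in DAPI were collected in all 3 groups. Each group had 3 libraries, numbered here as in the labels, and no group was treated. The age, sex and number of mice were not given in the sources used here, nor does any label say whether different animals gave the replicate libraries. The p-values below therefore measure the spread between these libraries, which may be technical.

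Oxidative phosphorylation takes place in the inner mitochondrial membrane. Complex I (NADH dehydrogenase) and complex II (succinate dehydrogenase) pass electrons to ubiquinone, complex III (the cytochrome bc1 complex) hands them to cytochrome c, and complex IV (cytochrome c oxidase) gives them to oxygen. The protons pumped by complexes I, III and IV drive complex V, the ATP synthase. Complex II is encoded wholly in the nucleus, whereas the other complexes join nuclear subunits to a few core subunits read from mitochondrial DNA. Olfactory neurons spend ATP on ion pumping after odor responses and on axon upkeep, and mitochondria lie in the dendritic knob, soma and axon rather than in the cilia.

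Libraries held 17212807 to 36230606 expected counts. The receptor tagged in a group ranked first among Olfr rows in each of its libraries. It took 22.8 to 32.8% of all Olfr counts in the Olfr73 libraries, 85.1 to 94.7% in the Olfr1507 libraries and 2.08 to 10.1% in the Olfr160 libraries. Other receptor genes thus gave 67.2 to 77.2% of Olfr counts in the Olfr73 libraries and 89.9 to 97.9% in the Olfr160 libraries, and the group names below stand for libraries by their label, not for pure populations. The 11 mature olfactory neuron markers (Omp, Gnal, Adcy3 and others), all detected, summed to 8.50 to 8.68% of counts in the Olfr1507 libraries, 5.55 to 5.69% in Olfr73 and 3.14 to 4.91% in Olfr160. The 13 markers of sustentacular and gland cells, none of them at 0 throughout, summed to 0.0251 to 0.0721%, 0.330 to 0.615% and 2.33 to 5.74% in the same order. Both marker sums thus moved with the groups in every comparison below, and their part in the results was not tested. Of 10 striated muscle markers 3 were at 0 in all libraries, and the list took at most 0.000244% of counts. In such bulk samples, fewer cells of a type and less RNA per cell cannot be told apart.

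Per unit of transcript length, 7 of 12 tested mitochondrially encoded genes had higher mean levels than any nuclear member, and 3 lay below the median of the nuclear ones. These 3 were mt-Nd6, mt-Atp8 and mt-Nd4l, and the levels of the last 2 are uncertain. mt-Atp8 had a deposited level of 0 in all libraries despite 13 to 64 counts in each, and mt-Nd4l had 74 counts beside 523 on the identical copy Gm10222. On the TPM scale, a level per transcript length, mt-Cytb, the cytochrome b of complex III, had a mean of 3991 ± 1731 (SD, n = 9 libraries). It was followed by mt-Atp6, the proton channel subunit of complex V, at 2478 ± 1127 TPM. Among nuclear members Atp5a1, the alpha subunit of the ATP synthase head, had the highest mean, 831 ± 138 TPM, and the median of the 84 that passed the filter on low counts was 195 TPM. The highest of complex IV was Cox4i1, a structural subunit that regulates the enzyme, at 817 ± 51.9 TPM. Sdhb, the iron-sulfur subunit of complex II, reached 504 ± 79.4 TPM, and Uqcrc1, a core subunit of complex III, 465 ± 139 TPM. The highest of the complex I symbols was Ndufa4, now known as a subunit of complex IV, at 617 ± 92.7 TPM. Assembly factors of complex I were lower, led by Ndufaf7 at 112 ± 11.1 TPM. The spread of the mitochondrially encoded genes over the 9 libraries was wide against that of the nuclear ones.

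The share of counts on nuclear members lay in a narrow range, highest in the Olfr1507 libraries, while the share on mitochondrially encoded members ranged widely. Nuclear members took 0.719, 0.722 and 0.727% of counts in Olfr1507 libraries 1 to 3, 0.665, 0.663 and 0.694% in Olfr73 and 0.65, 0.686 and 0.692% in Olfr160. Mitochondrially encoded members took 0.227, 0.352 and 0.234% in Olfr1507, 0.822, 0.355 and 0.859% in Olfr73 and 0.632, 0.409 and 0.45% in Olfr160. The group means were 0.271 ± 0.0703%, 0.679 ± 0.281% and 0.497 ± 0.119% (SD, n = 3 each). Olfr73 library 2 lay far below the other Olfr73 libraries and at the level of Olfr1507 library 2, which was itself the highest of its group. All 3 Olfr1507 libraries lay below all 3 Olfr160 libraries, and below Olfr73 libraries 1 and 3. Counts on mitochondrially encoded members per count on nuclear members, a ratio that no scaling between libraries changes, were 0.316, 0.488 and 0.322 in Olfr1507, 1.24, 0.536 and 1.24 in Olfr73 and 0.973, 0.595 and 0.649 in Olfr160. In TPM the same ratio was 0.357, 0.508 and 0.334, 1.12, 0.537 and 1.03 and 0.867, 0.56 and 0.61. As a share of summed TPM, nuclear members took 2.132, 2.188 and 2.217% in Olfr1507, 2.105, 1.857 and 2.221% in Olfr73 and 1.834, 2.100 and 2.115% in Olfr160. On that scale Olfr73 library 3 was the highest, so that the order of the nuclear shares holds by counts alone. The gene mt-Cytb alone took 33.9 to 39.0% of the mitochondrially encoded counts in every library.

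**Figure D1:**
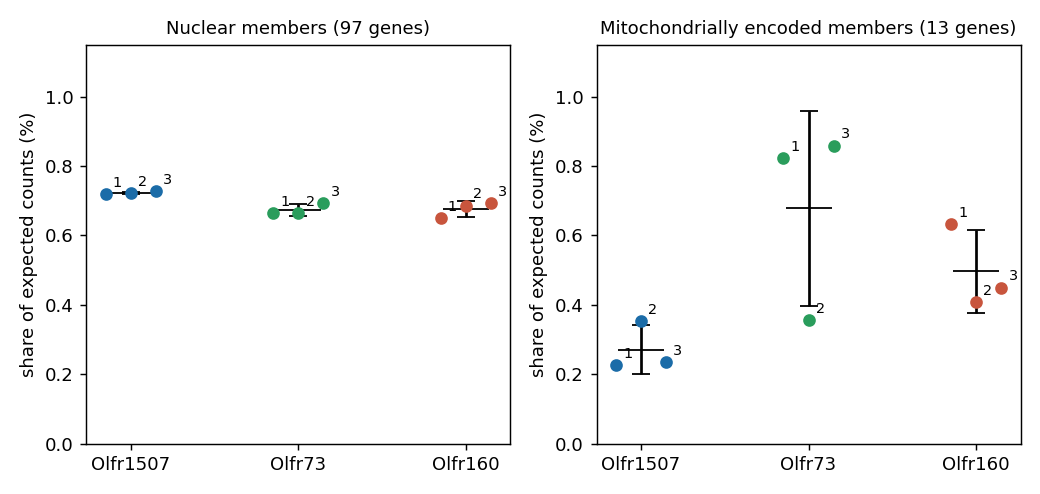
Share of expected counts (%, y axis) on the 97 nuclear and 13 mitochondrially encoded members in each library, numbered 1 to 3 within its group; bars are the mean and SD over 3 libraries. Nuclear shares lie between 0.650 and 0.727% in all 9 libraries, whereas mitochondrially encoded shares run from 0.227 to 0.859%, with Olfr73 library 2 at 0.355%.

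Gene by gene, counts were compared with edgeR's quasi-likelihood test over the 16399 genes that passed the filter on low counts, of which 96 were members (84 nuclear, 12 mitochondrially encoded). A gene is said to have risen or fallen where its Benjamini-Hochberg adjusted p over all genes tested was under 0.05. Levels are CPM scaled with TMM factors (normalised CPM, which ignores transcript length), and fold changes are on the log2 scale with their standard error. The groups differed widely in composition, and the scaling moved every gene: the median log2 fold change of all genes tested was -0.14 for Olfr1507 over Olfr160 with TMM, -0.56 with library size alone and -1.74 when mature neuron markers were held equal. For Olfr1507 over Olfr73 these medians were -0.15, -0.47 and -1.08, and for Olfr73 over Olfr160 they were -0.01, -0.12 and -0.69. Directions for single members are therefore directions relative to the bulk of genes in the TMM fit, and the distance of a group of members from the median of all genes is given beside them.

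Nuclear members, and above all those of complex I and complex II, stood higher in the Olfr1507 than in the Olfr160 libraries in the TMM fit. Of 84 tested, 25 rose and 2 fell (background over all genes: 20.7% higher, 27.7% lower and 48.4% in either direction). The libraries of the 2 groups did not overlap in 47 of the 84, a share below the 65.8% of all genes. Their median log2 fold change was 0.30, which is 0.43 above the median of all genes. With library size alone 4 rose and 12 fell and the median turned to -0.12, and with mature neuron markers held equal none rose, 80 fell and the median was -1.30. The distance from the median of all genes was 0.44 under both of these scalings, but a change of scaling moves all genes nearly alike and could hardly change it. Counts of risen members ranged from 19 to 27 when 1 library was left out. Fitted as log2(TPM + 1) with limma, 12 rose and 7 fell.

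All 4 subunits of complex II rose in Olfr1507 over Olfr160. Sdha, the flavoprotein that oxidises succinate, had 904, 931 and 930.2 normalised CPM in Olfr1507 libraries 1 to 3, 698, 808 and 719 in Olfr73 and 614, 661 and 704 in Olfr160. Sdhb, which carries the electrons onward through its iron-sulfur clusters, had 249.6, 287 and 273 in Olfr1507, 183, 200.2 and 208 in Olfr73 and 158, 175 and 172 in Olfr160. The Olfr1507 libraries lay above all others for both genes. Sdhb was 1.6-fold higher in Olfr1507 than in Olfr160 (log2 fold change 0.68 ± 0.10, edgeR adjusted p = 0.000561). The membrane anchor Sdhd had means of 75.5 ± 4.02 in Olfr1507, 62.3 ± 9.26 in Olfr73 and 56.4 ± 8.35 in Olfr160 (SD, n = 3). The second anchor, Sdhc, is described with the comparison of Olfr73 and Olfr160. Summed over complex II, levels were 1598, 1632 and 1631 TPM in Olfr1507, 1362, 1345 and 1318 TPM in Olfr73 and 1180.0, 1313 and 1381 TPM in Olfr160. The Olfr1507 sums lay above all others on this scale as well.

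In complex I, 12 of 38 tested subunits and 4 of 7 tested assembly factors rose in Olfr1507 over Olfr160, and none fell. The 38 were grouped by symbol and include Ndufa4, now placed in complex IV, and the processed pseudogene Ndufb4c. Neither of these passed in any comparison. Ndufv1, the subunit that binds NADH and flavin, had 339, 307 and 340.2 normalised CPM in Olfr1507, 229, 255 and 237 in Olfr73 and 193, 206 and 211 in Olfr160, so that the 3 groups did not overlap. Its log2 fold change over Olfr160 was 0.69 ± 0.09 (edgeR adjusted p = 0.00034). Ndufs1, the largest iron-sulfur subunit, had means of 412 ± 18.4, 344 ± 36.2 and 259.6 ± 46.2 in Olfr1507, Olfr73 and Olfr160. Ndufa10, an accessory subunit of the membrane arm, had the largest log2 fold change in the complex, 0.93 ± 0.23 (edgeR adjusted p = 0.00886). Its levels were 116, 121 and 89.3 in Olfr1507 and 36.4, 61.7 and 72.4 in Olfr160, and Olfr160 library 1 was the lowest of all. Other subunits that rose included Ndufs3, Ndufs4, Ndufs7, Ndufv2, Ndufv3, Ndufa9, Ndufb2 and Ndufb5.

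Among assembly factors, which build complex I and are not part of the finished enzyme, Ndufaf1 had 47.1, 45.8 and 51 normalised CPM in Olfr1507, 28.7, 30.9 and 25.3 in Olfr73 and 25.1, 25.5 and 29.6 in Olfr160. The Olfr1507 libraries did not overlap with either group. Ndufaf1 was 1.79-fold higher in Olfr1507 than in Olfr160 (log2 fold change 0.84 ± 0.13, edgeR adjusted p = 0.000799) and 1.69-fold higher than in Olfr73 (0.76 ± 0.13, adjusted p = 0.00243). Ndufaf4, which joins an intermediate of the same assembly line, had means of 188 ± 15.6, 134 ± 21 and 106 ± 21.1 in Olfr1507, Olfr73 and Olfr160. Ndufaf3 and Ndufaf7 rose as well. With mature neuron markers held equal, the log2 fold changes over Olfr160 turned to -0.73 for Ndufaf1 and -0.73 for Ndufaf4, -0.89 for Ndufv1, -0.91 for Sdhb and -0.58 for Ndufa10.

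Complexes III, IV and V were mixed. Uqcrc1 had the largest rise of any member in Olfr1507 over Olfr160: its levels were 517, 550.3 and 511 normalised CPM in Olfr1507, 275, 309 and 261 in Olfr73 and 231, 255 and 294 in Olfr160. No Olfr1507 library came near the other 6. The fold was 2.02 over Olfr160 (log2 fold change 1.02 ± 0.12, edgeR adjusted p = 0.000156) and 1.87 over Olfr73 (0.90 ± 0.12, adjusted p = 0.00059). With mature neuron markers held equal these log2 values became -0.55 and -0.021. Its partner core subunit Uqcrc2 rose over Olfr160 too, and the other 6 tested subunits of complex III did not pass the test. Their log2 fold changes lay on both sides of 0, so that the median of the complex was -0.01.

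In complex IV, grouped by symbol and so without Ndufa4, 1 of 10 tested nuclear subunits rose in Olfr1507 over Olfr160, and none fell. This was Cox5b, a subunit facing the matrix, with 19.8, 24 and 21.6 normalised CPM in Olfr1507 and 8.28, 11.7 and 17.7 in Olfr160 (log2 fold change 0.80 ± 0.25, edgeR adjusted p = 0.0276). The call was lost without Olfr1507 library 2 or 3 or without Olfr160 library 1 or 2 (adjusted p 0.0631 to 0.0853). Cox4i1, with the highest nuclear level of the complex, had means of 134 ± 8.97, 129 ± 17.5 and 122 ± 9.83 in Olfr1507, Olfr73 and Olfr160, with no pair of groups past the test.

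In complex V, 2 of 17 subunits rose and 2 fell in Olfr1507 over Olfr160. Atp5a1 had 1482, 1313 and 1371 normalised CPM in Olfr1507, 874, 1016 and 856 in Olfr73 and 852, 1002 and 988 in Olfr160. It was 1.47-fold higher in Olfr1507 than in Olfr160 (log2 fold change 0.55 ± 0.12, edgeR adjusted p = 0.0042). Its catalytic partner Atp5b had a high spread, with 1001, 846 and 593 in Olfr1507 and 243, 567 and 643 in Olfr160, and did not pass. Atp5e, the small epsilon subunit of the head, was near the lower end of the counts: 9, 25 and 21 counts in Olfr1507, 69, 33 and 47 in Olfr73 and 74, 96 and 60 in Olfr160. It fell by 2.02 on the log2 scale over Olfr160 (SE 0.51, edgeR adjusted p = 0.00972). Atp5g1, 1 of 3 genes for the c-ring subunit, had 6.8, 9.51 and 10.5 normalised CPM in Olfr1507, 12, 13.9 and 16.6 in Olfr73 and 15.8, 17.7 and 19.1 in Olfr160. Here the Olfr1507 libraries were the lowest, and the log2 fold change over Olfr160 was -0.97 ± 0.22 (edgeR adjusted p = 0.00554). The other c-ring genes, Atp5g2 and Atp5g3, did not pass; Atp5g3 was the highest of the 3 by length, at 520.4 ± 23.5 TPM in Olfr1507 and 509 ± 57.8 TPM in Olfr160.

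**Figure D2:**
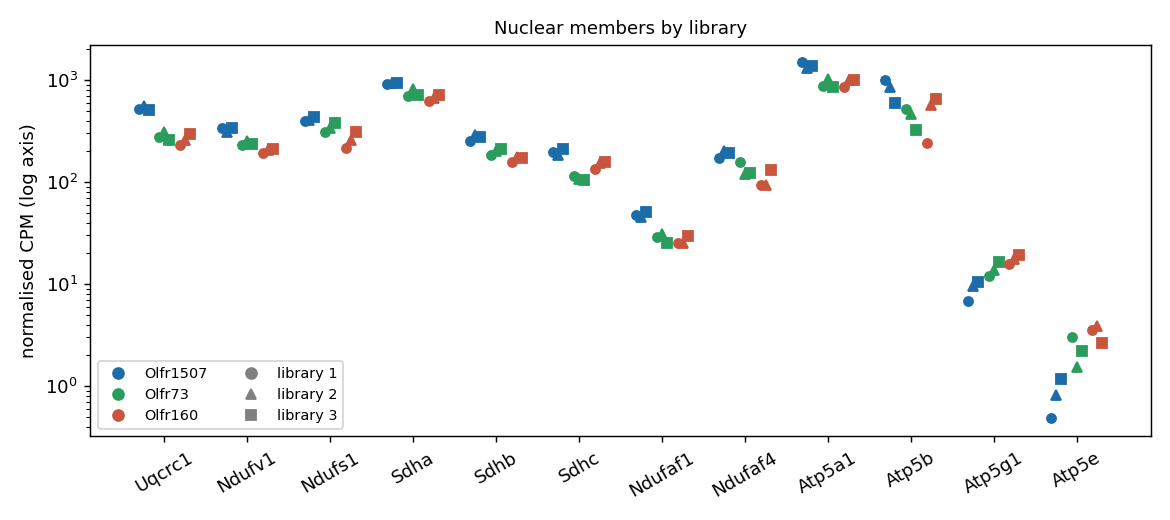
Normalised CPM (log axis) of 12 nuclear members in the 9 libraries, coloured by group, with a marker shape for each library number. Olfr1507 libraries are above the others for Uqcrc1, Sdhb, Ndufaf1 and Atp5a1 and below them for Atp5g1 and Atp5e in the TMM fit; scaled to mature neuron markers, Uqcrc1 in Olfr1507 over Olfr160 turns to -0.55 on the log2 scale.

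Against Olfr73, which like Olfr1507 was sorted on GFP, fewer nuclear members rose in Olfr1507: 12 rose and 4 fell of 84 (background 14.5% higher, 19.9% lower and 34.4% in either direction). The libraries did not overlap in 38 of the 84, against 47.6% of all genes. The share of rises is close to that of all genes, and the comparison shares the Olfr1507 libraries with the one over Olfr160. The median log2 fold change was 0.09, which is 0.24 above the median of all genes. With library size alone 5 rose and 15 fell, and with mature neuron markers held equal 1 rose and 61 fell. Without Olfr1507 library 2 or library 3, 7 rose. Complex II again led, with 3 of 4 subunits risen, and 3 of 7 assembly factors and 4 of 38 complex I subunits did so. Those that fell were small subunits: Atp5j2, Atp5l and Atp5g1 of complex V and Cox6c of complex IV. Atp5j2, a membrane-sector subunit, had 8.53, 10.9 and 14.1 normalised CPM in Olfr1507 and 19.5, 22.5 and 26.8 in Olfr73 (log2 fold change -1.04 ± 0.24, edgeR adjusted p = 0.00972). Atp5l, the g subunit of the same sector, had 8.26, 10.3 and 13.5 and 16.6, 18.9 and 26.8 (-0.96 ± 0.24, adjusted p = 0.0153). In both, all Olfr1507 libraries were below all Olfr73 libraries, but the call for Atp5l was lost without Olfr1507 library 1 or 2. Counts of fallen members dropped to 1 without Olfr1507 library 1 or library 2 and to 2 without Olfr73 library 3.

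Between Olfr73 and Olfr160 few nuclear members differed: 1 rose and 2 fell of 84 (background 7.45% higher, 10.5% lower and 17.9% in either direction). The libraries did not overlap in 20 of the 84, against 41.0% of all genes. Ndufv3, a small flavoprotein-arm subunit, had 112, 106 and 124 normalised CPM in Olfr73 and 83.3, 82.3 and 87.9 in Olfr160 (log2 fold change 0.44 ± 0.12, edgeR adjusted p = 0.0325). This call was lost, with adjusted p from 0.0501 to 0.115, on leaving out Olfr1507 library 2 or any library of Olfr73, or Olfr160 library 1 or 2. Sdhc was among those that fell.

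Sdhc, the second membrane anchor of complex II (chr1:171127165-171150603 in mm10), was lowest in Olfr73. It had 194, 186 and 211 normalised CPM in Olfr1507, 114, 108 and 104 in Olfr73 and 135, 153 and 158 in Olfr160. The 3 groups did not overlap, with Olfr1507 highest. The log2 fold change was 0.86 ± 0.10 for Olfr1507 over Olfr73 (edgeR adjusted p = 0.000332) and -0.45 ± 0.10 for Olfr73 over Olfr160 (adjusted p = 0.0159). The call for Olfr73 over Olfr160 did not hold in every refit: the adjusted p was 0.0693 without Olfr160 library 2 and 0.0527 without Olfr73 library 3. With mature neuron markers held equal, Sdhc turned to -0.065 for Olfr1507 over Olfr73.

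**Figure D3:**
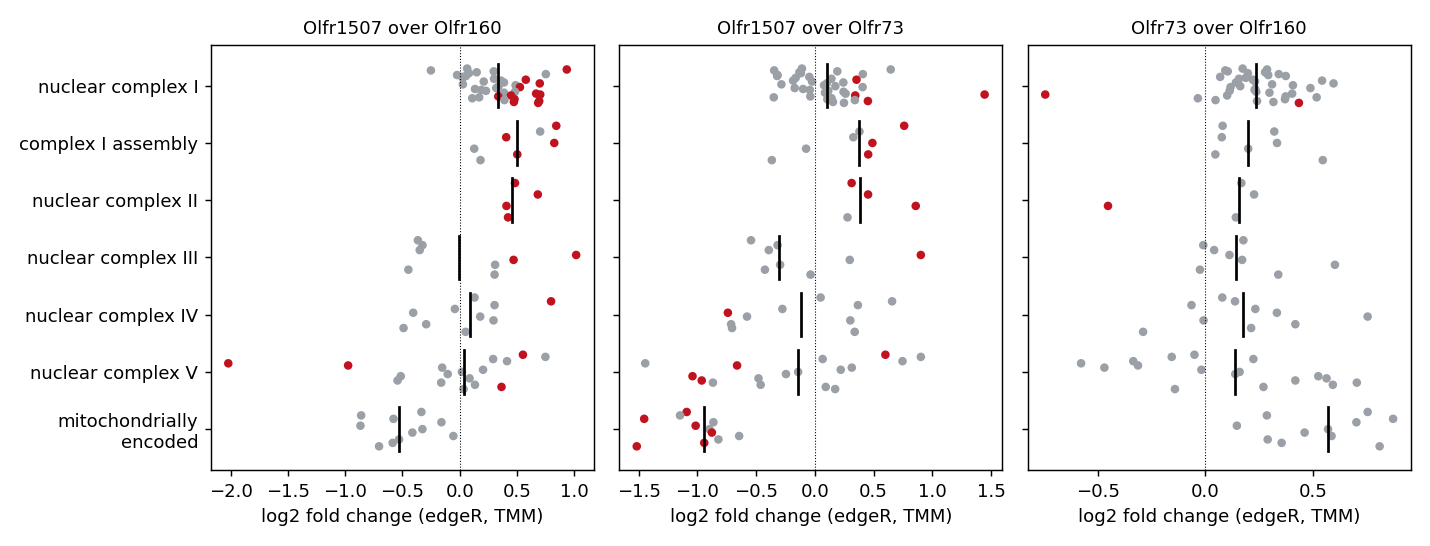
Log2 fold change (x axis, edgeR with TMM) of tested members by complex and genome of origin in the 3 comparisons; red points passed an adjusted p of 0.05 and black lines are medians, and mt-Nd4l, with 0 counts in Olfr1507, is left out. The medians of complex II and of the complex I assembly factors lie to the right in both Olfr1507 comparisons and those of mitochondrially encoded genes to the left, but with mature neuron markers held equal the nuclear medians turn negative in all 3 comparisons.

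Members that rose were mostly those with long transcripts. Length was taken as that of the longest coding transcript of a gene in GENCODE M21, and this split was made after the values had been seen. For Olfr1507 over Olfr160, 22 of 39 nuclear members of 1000 bases or more rose, with a median log2 fold change of 0.45. Of 44 under 1000 bases 3 rose, with a median of 0.08; the processed pseudogene Ndufb4c has no coding transcript. For Olfr1507 over Olfr73 the counts were 12 of 39 and 0 of 44, with medians of 0.30 and -0.15, and all 3 fallen members with a length under 1000 bases were subunits of complex IV or V. For Olfr73 over Olfr160 the medians of the long and the short members were alike, 0.20 and 0.21. Over all genes tested the medians for Olfr1507 over Olfr160 were -0.06 in 13511 genes of 1000 bases or more and -0.12 in 603 shorter ones, of which 3186 and 75 rose. For Olfr1507 over Olfr73, 16.5% of these longer genes and 7.96% of the shorter ones rose. With the median length of coding transcripts in place of the longest, 14 of 23 long and 11 of 60 short nuclear members rose over Olfr160. By that measure 23.3% of all long and 22.3% of all short genes rose. Short members were also thinly counted for their level: Cox8a, at 281 ± 26.8 TPM in Olfr1507, had 305, 454 and 280.0 counts there, whereas Sdhb, at 601 ± 29.1 TPM, had 4624, 8699 and 4889. The library kit was run for inserts of about 300 bases, and the part of length in these calls was not tested.

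**Figure D4:**
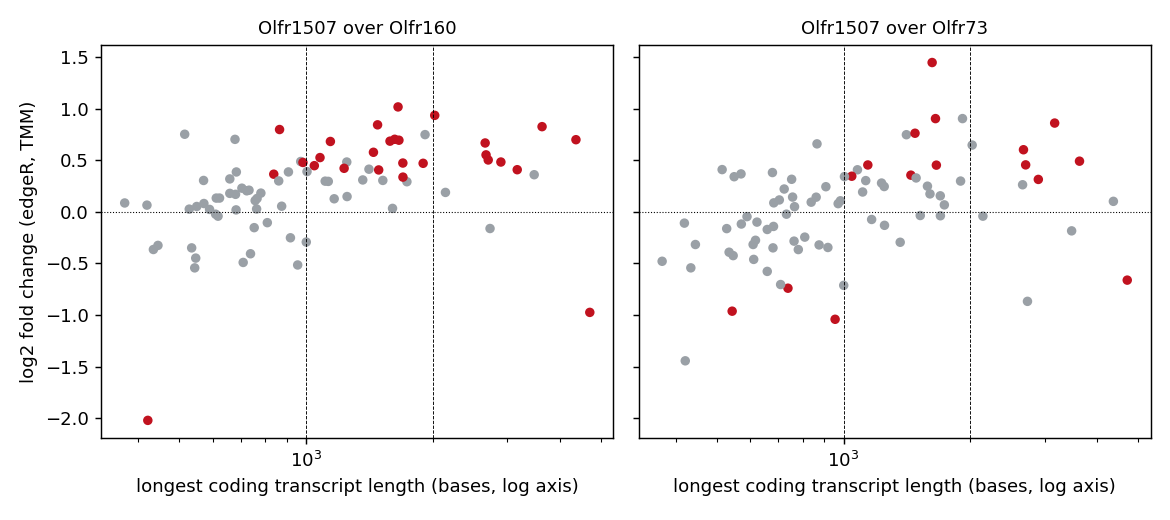
Log2 fold change (y axis, edgeR with TMM) of tested nuclear members against the length of their longest coding transcript (log axis) for Olfr1507 over Olfr160 and over Olfr73; red points passed an adjusted p of 0.05 and dashed lines mark 1000 and 2000 bases. Of the members under 1000 bases 3 of 44 rose over Olfr160 and none of 44 over Olfr73, against 12.4 and 7.96% of all genes under 1000 bases. Under library size alone, however, nuclear medians are -0.12 and -0.23.

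Mitochondrially encoded members stood lower against nuclear ones in the Olfr1507 libraries than in the other groups. For Olfr1507 over Olfr73, 6 of 12 tested fell and none rose (background 19.9% lower): mt-Nd1 and mt-Nd5, membrane-arm subunits of complex I, mt-Nd6 of the same arm, mt-Co1 and mt-Co3, core subunits of complex IV, and mt-Atp6. The libraries did not overlap in 3 of the 12, against 47.6% of all genes. Among the fallen members the libraries were apart for mt-Co1 and mt-Nd6 and overlapped for mt-Nd1, mt-Nd5, mt-Co3 and mt-Atp6. The median log2 fold change was -0.98, a distance of -0.82 from the median of all genes and of -1.07 from that of nuclear members. A change of scaling moves both medians nearly alike, so that the distance from nuclear members could hardly change. It was between -1.08 and -1.07 under 4 of the scalings run. For Olfr1507 over Olfr160 the median was -0.55 and the distance from nuclear members -0.85, and 1 of 12 passed (background 27.7% lower). Here too the libraries did not overlap in 3 of the 12, against 65.8% of all genes. The gene that passed, mt-Nd4l, had 0 counts in all Olfr1507 libraries and 15, 30 and 14 in Olfr160. As counted, its row was at least 19.3-fold lower against a floor of 3 counts over the Olfr1507 group. This is no bound on the transcript, because reads can be split with the identical copy Gm10222. That copy had 37, 72 and 21 counts in Olfr1507 and 64, 26 and 63 in Olfr160. With mt-Nd4l at that bound the median stayed -0.55. For Olfr73 over Olfr160 the median was 0.52, and 0 of the 12 had libraries without overlap, against 41.0% of all genes. There edgeR called none of the 12 at an adjusted p under 0.05 and 3 at an unadjusted p under 0.05, all higher. DESeq2 called 1, and with mature neuron markers held equal the median turned to -0.18.

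mt-Co1, the catalytic subunit that holds the oxygen-reducing centre, had 400.0, 678 and 438 normalised CPM in Olfr1507 libraries 1 to 3, 1727, 699 and 1722 in Olfr73 and 868, 644 and 752 in Olfr160. Olfr73 libraries 1 and 3 were the highest, and Olfr73 library 2 lay just above Olfr1507 library 2. The log2 fold change of mt-Co1 for Olfr1507 over Olfr73 was -1.45 ± 0.34 (edgeR adjusted p = 0.0103). mt-Nd6, the only mitochondrial protein gene on the minus strand, had 2.86, 5.05 and 2.85 in Olfr1507, 11.6, 6.88 and 12.4 in Olfr73 and 7.95, 5.13 and 4.54 in Olfr160 (Olfr1507 over Olfr73 -1.51 ± 0.37, adjusted p = 0.0135). Its call was lost without Olfr1507 library 1 (adjusted p 0.0569) or library 3 (0.0542). As no use of strand is stated for the counting, reads of mt-Nd6 and of RNA from the opposite strand cannot be told apart. mt-Cytb had 951, 1645 and 1024, 2642, 1217 and 2883 and 1815, 1264 and 1458 in the same order, and its log2 fold change over Olfr73, -0.90 ± 0.33, missed the threshold (adjusted p = 0.0594).

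These calls rested on few libraries. Without Olfr73 library 2, the low one, 10 of the 12 fell in Olfr1507 over Olfr73, 4 passed over Olfr160 and 6 passed for Olfr73 over Olfr160. Without Olfr1507 library 1 or library 3, 1 fell over Olfr73, and without Olfr73 library 1 or library 3, 3 fell. Without any 1 library of Olfr1507 or of Olfr160, none passed for Olfr1507 over Olfr160. The mitochondrial ribosomal RNA genes mt-Rnr1 and mt-Rnr2, which a preparation of polyadenylated RNA does not aim at, varied too. Their summed counts, not scaled to depth, were 3944, 5734 and 2755 in Olfr1507, 8460, 3454 and 10457 in Olfr73 and 9081, 7485 and 5991 in Olfr160. As shares of counts they ran from 0.0131 to 0.0179% in Olfr1507, 0.0166 to 0.0513% in Olfr73 and 0.0289 to 0.0528% in Olfr160. By share Olfr1507 library 1, and not the deepest library 2, was the highest of its group, unlike for the mitochondrially encoded members. Olfr73 library 2 was again the low one of its group. The other 22 mitochondrial RNA rows of the table, all transfer RNAs, were at 0 in every library.

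**Figure D5:**
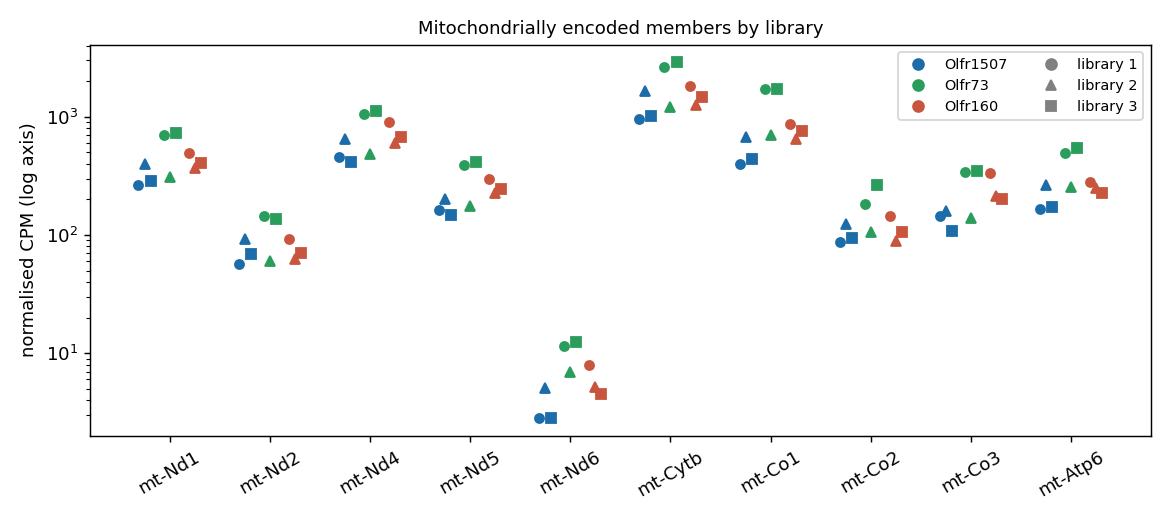
Normalised CPM (log axis) of 10 mitochondrially encoded members in the 9 libraries, coloured by group, with a marker shape for each library number. Olfr73 libraries 1 and 3 are at the top for mt-Co1 and mt-Cytb (2642 and 2883 for mt-Cytb), while Olfr73 library 2 sits among the Olfr1507 libraries for mt-Cytb (1217 against 951 to 1645) and just above them for mt-Co1 (699 against 400.0 to 678).

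Some mitochondrial counts cannot be assigned with certainty, because genes overlap or have near-identical copies in the nuclear genome. mt-Atp8 and mt-Atp6, both of complex V, share 43 bases, printed in capitals, and the row Gm10925 on chromosome 1, annotated as an unprocessed pseudogene, repeats mt-Atp6. The first sequence is the end of mt-Atp8 (chrM:7890-7969), the second the start of mt-Atp6 (chrM:7927-8006) and the third the start of Gm10925 (chr1:24614572-24614651, minus strand), in which capitals mark bases equal to mt-Atp6, all in mm10 from GENCODE M21.
mt-Atp8 end: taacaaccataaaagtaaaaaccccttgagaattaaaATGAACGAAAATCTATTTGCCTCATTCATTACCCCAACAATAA
mt-Atp6 start: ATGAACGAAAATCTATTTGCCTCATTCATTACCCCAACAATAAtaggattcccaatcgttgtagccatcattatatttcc
Gm10925 start: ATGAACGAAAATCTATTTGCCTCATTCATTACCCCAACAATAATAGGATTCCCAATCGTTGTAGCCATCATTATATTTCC
Gm10925 equalled mt-Atp6 at all 678 bases compared. Reads from either could be split between them by the counting, and over the 9 libraries Gm10925 held 88887 counts and mt-Atp6 59590. In the same way Gm28661 held 29787 counts beside 26732 of mt-Co2, and Gm28437 38314 beside 44414 of mt-Co3. For mt-Nd4l the copy Gm10222 held 523 counts, more than the 74 of the gene, and had 37, 72 and 21 counts in the Olfr1507 libraries. With copies summed into their genes, mt-Nd4l no longer passed over Olfr160 and none of the mitochondrially encoded members did; over Olfr73, 6 fell. mt-Atp8 had 13 to 64 counts in each library but a deposited TPM of 0 in all, so that the 2 units differ for this short gene. mt-Nd3 had 0 to 13 counts, with a TPM above 0 wherever it was counted. Among nuclear members, Ndufb4c, annotated as a processed pseudogene, matches Ndufb4 and held 73, 174 and 93 counts in Olfr1507 beside 205, 410.0 and 204 for Ndufb4, so that both are uncertain. The level of the c-ring gene Atp5g2 is uncertain too: Gm10175, identical to the Atp5g2 transcript compared, held 1050 counts over the 9 libraries beside 1782 of Atp5g2.

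Of the 110 members 14 were too low to test, 13 nuclear and mt-Nd3. The rows Cox6a2, Cox7b2, Cox8c, Ndufa11b and Ndufs6b had 0 counts in all 9 libraries. Several of the others are forms of complex IV subunits known from muscle, testis or lung rather than from neurons. Cox4i2, the lung form of Cox4i1, had 1, 0 and 0 counts in Olfr1507, 2, 1 and 0 in Olfr73 and 9, 3 and 3 in Olfr160. Cox7a1, the muscle form of Cox7a2, had 0, 0 and 0 counts in Olfr1507, 4, 4 and 5 in Olfr73 and 1, 4 and 7 in Olfr160. Cox8b, the muscle form of Cox8a, was seen in Olfr160 alone, at 4, 3 and 4 counts. Cox6b2 had at most 8 counts in a library, Ndufaf6 4, Ndufa4l2 3 and Cox6c2, a processed pseudogene row, 1. Forms usual in most tissues were well detected: Cox6a1 had 477 ± 14.2 TPM in Olfr1507, 373 ± 22.2 in Olfr73 and 434 ± 47.5 in Olfr160, and Cox7a2l, which helps join complexes III and IV, 318 ± 13, 282 ± 28.3 and 296 ± 43.3. An exception was Cox5a, a subunit of complex IV in all tissues, with 8, 12 and 2 counts in Olfr1507, 9, 4 and 12 in Olfr73 and 5, 10 and 7 in Olfr160. Uqcrfs1, the Rieske iron-sulfur protein of complex III, passed the filter with a mean of only 2.33 ± 0.676 TPM in Olfr1507 and 2.17 ± 0.702 in Olfr160. Both lay far below the other usual subunits of their complexes in all 3 groups, and the reason was not tested.

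Genes that feed, build or serve the chain but lie outside the name rule were counted in the same fit. The shares of all genes to read them against are 20.7% higher and 27.7% lower over Olfr160 and 14.5% and 19.9% over Olfr73; the shares of risen genes were below 14.5% over Olfr73 for assembly factors (7.69%), mitochondrial DNA expression (9.68%) and biogenesis regulators (0%). The tricarboxylic acid cycle, which supplies NADH and succinate, had 10 of 17 tested genes risen and none fallen in Olfr1507 over Olfr160, 7 and 0 over Olfr73, and 1 and 1 for Olfr73 over Olfr160. Proteins of the mitochondrial ribosome, which translates the mitochondrially encoded subunits, had 26 of 76 risen and 0 fallen over Olfr160 and 14 and 1 over Olfr73. Of 39 tested assembly factors outside the rule, 12 rose and 1 fell over Olfr160 and 3 rose and 2 fell over Olfr73; Uqcc1, of complex III, had 156 ± 8.29 normalised CPM in Olfr1507 and 99.5 ± 2.7 in Olfr160 (SD, n = 3). Genes of mitochondrial DNA expression counted 9 risen and 1 fallen of 31 over Olfr160, and 3 and 1 over Olfr73. Electron carriers and entry enzymes had 6 of 19 risen and 2 fallen over Olfr160, and 7 and 2 over Olfr73. Coq9, of ubiquinone synthesis, had 129 ± 7.02 in Olfr1507, 55.6 ± 8.49 in Olfr73 and 54.5 ± 3.02 in Olfr160. Glycolysis was mixed, with 8 of 19 risen and 6 fallen over Olfr160 and 4 and 6 over Olfr73. Ldha, which makes lactate, had 8.72 ± 0.577 in Olfr1507, 29.7 ± 9.7 in Olfr73 and 106 ± 25.4 in Olfr160, in the order of the sustentacular marker sum. Of 13 tested regulators of mitochondrial biogenesis 2 rose and 2 fell over Olfr160, and 0 rose and 3 fell over Olfr73. Nrf1, a transcription factor of respiratory genes, had 197 ± 7.23 in Olfr1507, 184 ± 13.5 in Olfr73 and 108 ± 10.9 in Olfr160. Carriers of the inner membrane and creatine kinase had 6 of 12 risen and 2 fallen over Olfr160, and 5 and 3 over Olfr73.

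Promoters of nuclear members were searched for letters known from respiratory genes, because NRF1, ETS factors and YY1 are known to act there. RefSeq windows from 250 bases before to 50 after the gene start (GRCm38.p6) were matched by symbol for 76 of the 97 nuclear members. On either strand, the NRF1-like letters GCGCA and GCGC with any 1 base between them were found in 25% of these 76 and in 5.19% of all 27025 genes with such a window. These 27025 were not limited to genes expressed in these libraries or to the 16399 tested. No share over tested genes alone was counted, so the contrast cannot be read as particular to respiratory genes. CCGGAAG (ETS-like) was found in 25% against 9.93%, and ATGGCGG (YY1-like) in 15.8% against 4.69%; matches of the 3 motifs may overlap one another. Of 9 members with a window that rose in both Olfr1507 comparisons, 3 held the NRF1-like letters in it, 3 the ETS-like and 2 the YY1-like. These are 33.3, 33.3 and 22.2%, against 25, 25 and 15.8% of the 76, which include the 9. In the 120 bases before the start, 5 of the 9 held at least 1 of the motifs. The other 4 held none there (Ndufa9, Ndufv1, Sdhb and Uqcrc1, the last with the largest rise over Olfr160). No share over other genes was counted for that shorter stretch. That stretch is printed for 3 of those with a match, chosen to show it, with matches in capitals: Sdha (chr13:74350241-74350360, minus strand) and Ndufaf4 (chr4:24897963-24898082, plus strand) hold the NRF1-like letters and Ndufaf1 (chr2:119662835-119662954, minus strand) the ETS-like ones.
Sdha: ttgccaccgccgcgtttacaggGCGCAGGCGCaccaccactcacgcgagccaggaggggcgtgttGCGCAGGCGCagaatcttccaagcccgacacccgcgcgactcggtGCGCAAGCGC
Ndufaf4: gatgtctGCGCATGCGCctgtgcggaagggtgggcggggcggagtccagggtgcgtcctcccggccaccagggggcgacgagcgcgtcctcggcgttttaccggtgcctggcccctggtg
Ndufaf1: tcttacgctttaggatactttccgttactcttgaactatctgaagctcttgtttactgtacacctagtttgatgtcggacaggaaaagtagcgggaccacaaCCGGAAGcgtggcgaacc
Sdha thus holds 3 NRF1-like matches in this stretch, the third of them ending at the base before the RefSeq start. In GENCODE M21 the gene begins at chr13:74350280, so that the third match lies inside its span there. A match describes the letters and not a bound site.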

How the data were processed

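Polyadenylated RNA of 9 libraries was prepared with a low-input kit, per the labels' protocols. Reads were processed with STAR 2.6.1 and RSEM 1.3.1 on mm10, and DESeq2 is named too, per the submitters' processing notes. No source used here names the annotation release. The authors deposited RSEM's expected counts and TPM per gene. Between 4.06 and 5.54% of a library's values were not whole, and all were rounded. Columns carrying older receptor names were matched to groups through RefSeq synonyms. Gene positions came from GENCODE M21, which holds 98.7% of the 142604 transcripts the table names.

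Counts were fitted over all 9 libraries with edgeR 4.0.16 (filterByExpr, TMM, robust quasi-likelihood test, Benjamini-Hochberg, 0.05) under R 4.3.3. The standard error is the absolute log2 fold change over the square root of F. The members and gene lists were chosen with earlier results of these data known. Named genes were all mitochondrially encoded members, complex II, tissue forms and, per complex and direction, up to 3 with the largest change among calls of at least 5 normalised CPM without overlap; others named beside them, the length split and the summing of copies were chosen after values were seen. Copies were found with blastn 2.17.0 at 97% identity over 60% of the transcript. On simulated counts for Olfr1507 over Olfr160 with 16399 genes, 41 of 100 genes changed 2-fold and 89 of 100 changed 4-fold were recovered. Of the 144 calls made there, 14 were false. All changed genes were raised in Olfr1507, unlike the real comparison, where genes moved in both directions. Some single-gene results are not reported here. No 2 libraries of a group agreed within sampling noise. Alternatives included DESeq2 1.42.0 and limma 3.58.1.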

Additional observations from a re-analysis of the deposited data

How the results depend on the processing

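Many results depended on the scaling between libraries, and mitochondrially encoded calls also on single libraries. With library size alone, nuclear members counted 4 higher and 12 lower for Olfr1507 over Olfr160, 5 and 15 for Olfr1507 over Olfr73, and 0 higher for Olfr73 over Olfr160; the median log2 fold change of nuclear members turned to -0.12 and -0.23 in the first and the second of these, and 6 and 10 mitochondrially encoded members passed. With mature neuron markers held equal, nuclear counts were 0 higher and 80 lower, 1 and 61, and 0 and 15 in the same order, with medians of -1.30, -0.83 and -0.46. Of the mitochondrially encoded members 12 passed in both Olfr1507 comparisons under that scaling, and their median for Olfr73 over Olfr160 turned to -0.18. Named genes that reversed under it were, for Olfr1507 over Olfr160, Uqcrc1 (-0.55), Ndufv1 (-0.89), Sdhb (-0.91), Ndufa10 (-0.58), Ndufaf1 (-0.73), Ndufaf4 (-0.73), Cox5b (-0.70) and Atp5a1 (-1.03). For Olfr1507 over Olfr73 these were Sdhc (-0.065), Uqcrc1 (-0.021) and Ndufaf1 (-0.16), and for Olfr73 over Olfr160 Ndufv3 (-0.23). RLE size factors gave 2 mitochondrially encoded calls for Olfr1507 over Olfr160 and 0 nuclear members higher for Olfr73 over Olfr160.

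Other tests gave other counts, and the cause was not tested. On log2(TPM + 1), limma called 12 nuclear members higher and 7 lower and 3 mitochondrially encoded ones for Olfr1507 over Olfr160, 8 nuclear lower for Olfr1507 over Olfr73, and 2 higher, 4 lower and 1 mitochondrially encoded for Olfr73 over Olfr160. With a pseudocount of 0.1 these were 12, 7 and 4, then 8, then 2 higher and 1 mitochondrially encoded. DESeq2 called 4 nuclear members lower and 3 mitochondrially encoded for Olfr1507 over Olfr160, 7 nuclear lower for Olfr1507 over Olfr73, and 3 nuclear higher and 1 mitochondrially encoded for Olfr73 over Olfr160. With limma-voom, 3 mitochondrially encoded members passed for Olfr1507 over Olfr73 and 4 nuclear ones were higher for Olfr73 over Olfr160. Without a filter on low counts 2 nuclear members were lower and 3 mitochondrially encoded passed for Olfr1507 over Olfr73, and 0 nuclear were higher for Olfr73 over Olfr160; with at least 5 CPM in 3 libraries 2 were. With only the 6 libraries compared, 4 mitochondrially encoded passed for Olfr1507 over Olfr160 and 0 nuclear were lower for Olfr73 over Olfr160. With copies summed, 0 mitochondrially encoded passed for Olfr1507 over Olfr160. By construction, stricter thresholds left fewer calls. At an adjusted p of 0.01, 0 mitochondrially encoded passed in both Olfr1507 comparisons, 7 nuclear were higher and 1 lower over Olfr73, and 0 and 0 for Olfr73 over Olfr160. With an absolute log2 fold change of at least 1, 1 nuclear member was higher and 1 lower in each Olfr1507 comparison, and 0 and 0 for Olfr73 over Olfr160.

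Leaving out 1 library at a time gave 19 to 27 nuclear members higher, 2 lower each time and 0 to 4 mitochondrially encoded for Olfr1507 over Olfr160. The ranges were 7 to 17, 1 to 4 and 1 to 10 for Olfr1507 over Olfr73, and 0 to 4, 0 to 2 and 0 to 6 for Olfr73 over Olfr160. Shares of counts on nuclear members ranged from 0.664 to 0.680% in Olfr73, 0.721 to 0.724% in Olfr1507 and 0.668 to 0.689% in Olfr160, and on mitochondrially encoded members from 0.589 to 0.841%, 0.231 to 0.293% and 0.429 to 0.541%. As shares of summed TPM, nuclear members took 2.06, 2.18 and 2.02% in Olfr73, Olfr1507 and Olfr160 and mitochondrially encoded members 1.88, 0.871 and 1.35%. With Olfr genes and other mitochondrial rows out of the denominator the nuclear share in Olfr1507 was 0.727%. Deviations from the group means correlated at -0.19 to 0.13 over the 9 pairs of samples with the same replicate number. The labels do not say what the numbers stand for, and weak correlations cannot exclude that they pair libraries. With the replicate block, 3 mitochondrially encoded members passed for Olfr1507 over Olfr73 and 2 nuclear were higher for Olfr73 over Olfr160. Counts of 100 or fewer, as for Atp5e, mt-Atp8 and mt-Nd4l, limit what can be said of the shortest genes. Of the alternatives run for single named genes, 409 kept the direction and the side of the threshold, 31 lost the call, 7 gained one and 12 reversed.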
